A study of Mus musculus with 18 samples.

Results

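Gab3, Siglec1, Sorl1, Sfxn5 and Cacna1d are 5 genes whose signal was lower in Klf3 knockout (KO) than in wild-type (WT) mouse macrophages when the 3 culture conditions were averaged. They are described here across 6 groups of arrays to see which condition carries that difference. They are 5 of 17097 genes measured, and 10 of the 45037 probe sets that are not controls name 1 of them alone. The genes were chosen by their KO minus WT average, so every KO minus WT value of theirs is a description and has no test. The tests below ask only what the average does not fix: whether the genotype difference changes with condition, and how each gene responds to treatment within a genotype.

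The cells were bone marrow-derived macrophages of male FVB/NJ mice aged 10 to 14 weeks, either WT or KO for Klf3 according to the labels. Marrow was cultured for 7 to 10 days in medium with a share of L929-conditioned medium, which supplies the growth factor M-CSF, and all groups share this culture. The growth factor was then washed away and regular medium given. Cells were lysed straight away (0 h) or kept for 8 h with vehicle, which was phosphate-buffered saline, or with lipopolysaccharide (LPS) at 100 ng/mL. Each genotype and condition has 3 arrays, 18 in all. Nothing in the labels says whether the 3 came from separate mice or cultures, so the p-values measure the spread between these samples, which may be technical. The labels also do not say how the Klf3 allele was made.

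KLF3 is a zinc finger transcription factor that binds CACCC-type sequences in DNA and is known mainly as a repressor of transcription. LPS, from the outer membrane of Gram-negative bacteria, is sensed by macrophages through TLR4 and switches on inflammatory genes within hours. The 5 genes encode unrelated proteins: a surface lectin (Siglec1), an endosomal sorting receptor (Sorl1), a signalling adaptor (Gab3), a mitochondrial membrane protein (Sfxn5) and a calcium channel subunit (Cacna1d).

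Since KLF3 binds CACCC-type sequences, the starts of these genes were read for CACCC, or GGGTG on the other strand. RefSeq promoter windows (build GRCm38.p6, 250 bases before to 50 after the start) were matched for 3 of the 5 genes, with 5 windows in all. The 250 bases before the start are shown for Sfxn5 and for the Cacna1d window that hold a match, and for the upstream Sorl1 start, which has none; capitals mark the match. They lie on the minus strand at chr6:85333423-85333672 (Sfxn5), chr14:30353487-30353736 (Cacna1d) and chr9:42124298-42124547 (Sorl1), and read 5′ to 3′.
Sfxn5: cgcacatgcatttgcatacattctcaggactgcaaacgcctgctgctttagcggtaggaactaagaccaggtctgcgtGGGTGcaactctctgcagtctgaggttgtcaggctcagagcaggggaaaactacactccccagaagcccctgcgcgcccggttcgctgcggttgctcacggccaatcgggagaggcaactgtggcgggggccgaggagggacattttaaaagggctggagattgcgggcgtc
Cacna1d: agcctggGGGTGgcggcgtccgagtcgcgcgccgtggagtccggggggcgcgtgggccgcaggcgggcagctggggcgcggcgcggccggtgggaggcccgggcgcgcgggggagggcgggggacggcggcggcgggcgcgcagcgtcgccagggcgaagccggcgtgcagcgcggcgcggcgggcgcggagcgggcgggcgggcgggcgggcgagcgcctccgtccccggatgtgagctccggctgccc
Sorl1: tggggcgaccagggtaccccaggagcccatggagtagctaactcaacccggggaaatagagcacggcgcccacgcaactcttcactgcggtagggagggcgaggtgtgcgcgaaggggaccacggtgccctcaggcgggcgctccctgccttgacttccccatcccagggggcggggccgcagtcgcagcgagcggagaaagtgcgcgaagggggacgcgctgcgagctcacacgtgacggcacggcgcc
The match begins at base -172 from the start in Sfxn5 and at base -243 in Cacna1d. In all, 2 of the 5 windows hold CACCC or GGGTG, and 57.5% of 32851 promoter windows of the same length do. The longer CCACACCC, searched on both strands and able to overlap the shorter match, is in 0 of the 5 windows and in 3.56% of all. A match is a string of letters and says nothing about binding.

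The LPS condition carried most of the lower signal in KO for 4 of the 5 genes, and a smaller share in the fifth, Sorl1. On the mean, KO was lower in every condition in all of the 5 but Sfxn5 (0.02 at 0 h). Only in Sorl1 were the arrays of the genotypes separate each time. Of the 3 KO minus WT differences that make up each average, the one after LPS contributed 81.7% of their sum in Gab3, 78.9% in Cacna1d, 73.9% in Sfxn5 and 63.6% in Siglec1. In Sorl1 it contributed 44.6%, against 33.3% if the conditions shared it evenly. That share is of the probe set that stands for Sorl1, and another probe set of the gene leaned more to LPS, as given below. A test of whether the genotype difference was the same in all 3 conditions passed at an adjusted p of 0.05 in Gab3, Sfxn5, Cacna1d and Siglec1 and did not in Sorl1. It called 257 of 17097 genes, 1.5%. Among the 21 genes lower in KO over replicate averages, a list cut on the same average that chose these 5, it called 12. These are 4 of the 5 and 8 of the 16 others, so a difference that changes with condition is common among such genes. The test over conditions is a moderated F test from limma with Benjamini-Hochberg adjustment over all genes, and every adjusted p below comes from that fit. Set against vehicle alone, the difference after LPS passed as more negative in Gab3 and Cacna1d. It did not in Sfxn5 (adjusted p = 0.0509) or Siglec1 (adjusted p = 0.108). Those 2 genes passed only against 0 h, a comparison that also spans 8 h in regular medium.

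The values are normalized intensities, linear readings made comparable between arrays, and differences are given on the log2 scale with the standard error (SE) of the fit. As a guide to absent signal, the text uses the nonspecific level, below which 95% of the 23 nonspecific control probe sets of the same array lie. Intensities of different probe sets are not compared with each other. The intensities are from whole cultures, where fewer cells of a kind and less RNA per cell cannot be told apart.

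**Figure D1:**
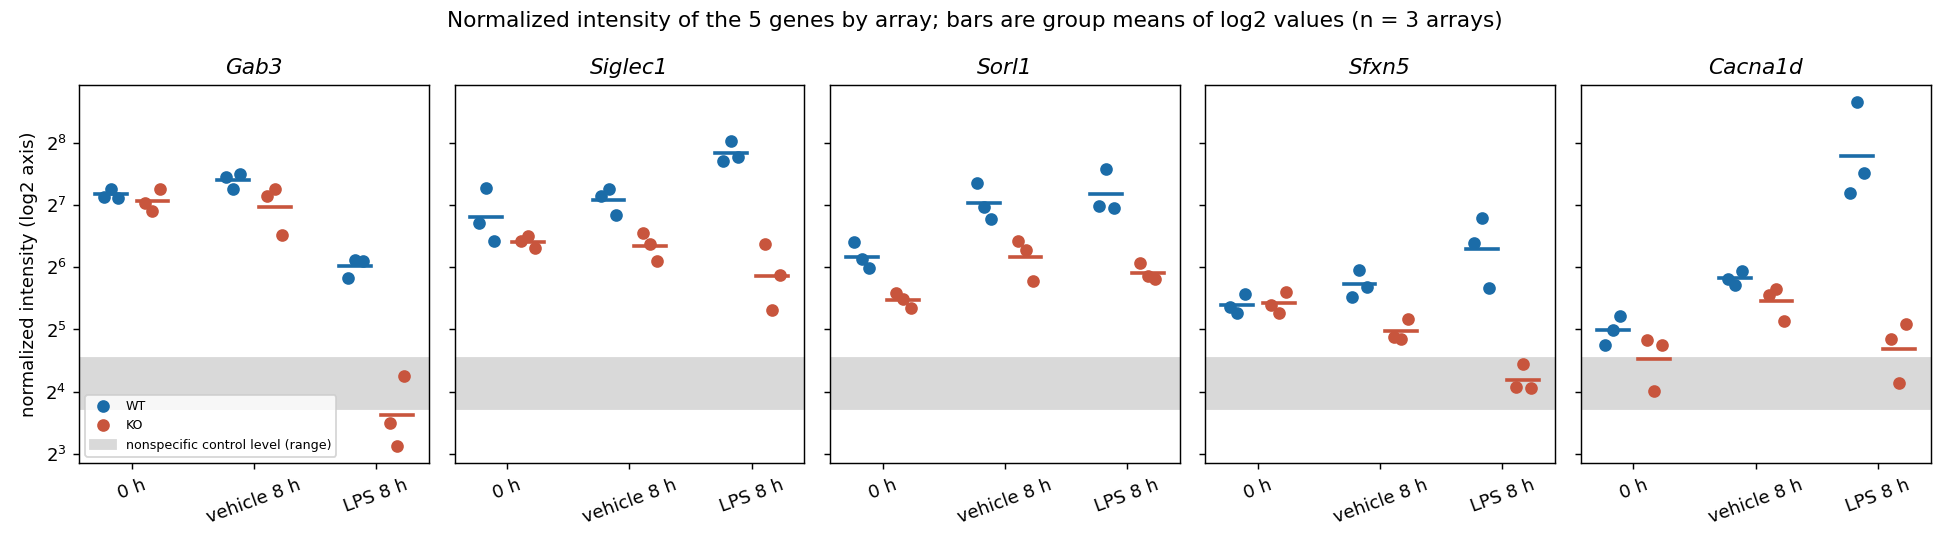
Normalized intensity (log2 axis) of the probe set that stands for each gene, by condition, with WT arrays in blue, KO arrays in red, 1 point per array and a bar at each group's mean log2 value (n = 3). The grey band is the range of the nonspecific level over the 18 arrays. After LPS the KO points lie below the WT points for every gene, and some KO arrays of Gab3, Sfxn5 and Cacna1d lie in or below the grey band.

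Siglec1 encodes sialoadhesin (CD169), a lectin of the macrophage surface that binds sialic acids on other cells and on pathogens. At 0 h its probe set 1427668_PM_at read 105, 155 and 86.0 in WT and 86.2, 90.8 and 79.1 in KO. After vehicle it read 142, 154 and 115 in WT and 93.6, 83.2 and 68.7 in KO. After LPS it read 209, 260.2 and 219 in WT and 82.9, 39.8 and 58.8 in KO. The genotypes overlap at 0 h and are separate after vehicle and after LPS, where the WT arrays are the highest of all groups and the KO arrays the lowest on average. The KO minus WT difference was -0.39 at 0 h, then -0.74 with vehicle and -1.98 with LPS (SE 0.24 each), the last a 3.94-fold lower signal.

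In WT, Siglec1 rose with LPS over vehicle by 0.75 ± 0.24 (SE; adjusted p = 0.0236). That comparison called 32.3% of all genes. In KO the same comparison gave -0.49 ± 0.24 (adjusted p = 0.135) and was not called, so the gene that rose in WT did not pass in either direction in KO. The genotype difference after LPS was more negative than at 0 h, by -1.59 ± 0.34 (adjusted p = 0.0227) and differed from that after vehicle by -1.24 ± 0.34, which did not pass (adjusted p = 0.108). The test over the 3 conditions gave F = 12.2 (adjusted p = 0.0446). This call is near the threshold. It ended with arrays shifted to the same median (adjusted p = 0.114), without normalization (0.224), with the plate column as a block (0.0703), with the mean of the gene's probe sets (adjusted p = 0.105), and without WT replicate 1 (0.131), WT replicate 2 (0.0924), WT replicate 3 (0.142), KO replicate 2 (0.291) or KO replicate 3 (0.145). The LPS to 0 h difference ended with arrays shifted to the same median (adjusted p = 0.0534), without normalization (0.133), with the mean of probe sets (0.0894), and without WT replicate 1 (0.0750), WT replicate 3 (0.0720), KO replicate 2 (0.159) or KO replicate 3 (0.0819). The rise in WT was 0.41 with arrays shifted to the same median (adjusted p = 0.248) and 0.03 without normalization (0.949), and ended without WT replicate 1 (adjusted p = 0.0678), WT replicate 2 (0.0597) or WT replicate 3 (0.122).

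The other Siglec1 probe sets were dimmer and partly differ. Probe set 1422161_PM_at gave KO minus WT of -0.58 at 0 h, -0.74 after vehicle and -1.55 after LPS, the same order as the main one. Probe set 1427706_PM_a_at gave -0.64, 0.04 and -0.998, so after vehicle it shows no lower signal in KO. All 3 probe sets rose with LPS in WT, by 0.75 to 1.09 (adjusted p 0.0296, 0.00373 and 0.00212 over the 45037 probe sets). None of the 3 passed the test over conditions at that level (adjusted p 0.0617, 0.418 and 0.320).

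The other sialic acid-binding lectins measured were Cd22, Cd33, Mag, Siglece, Siglecf and Siglecg. None of these 6 passed in KO minus WT after LPS, where 5.97% of all genes did, and their median difference was -0.27 against -0.02 over all genes. Siglece was above the nonspecific level on only 5 of 18 arrays. It passed as higher with LPS in WT, by 1.38 as read and 0.56 with readings raised to that level (adjusted p 7.5e-05 and 0.00698), and in KO by 1.05 as read (adjusted p = 0.000855), a call that ended with readings raised (0.23, adjusted p = 0.304). In WT, Cd33 (1.33) and Cd22, an inhibitory receptor best known from B cells (-1.27), also passed. Both calls in WT ended without WT replicate 2 (adjusted p 0.112 and 0.0918) or WT replicate 3 (0.174 and 0.0576). That of Cd33 also ended with arrays shifted to the same median (0.0924) and without normalization (0.262). In KO both passed in the same direction in the main fit, Cd33 by 1.40 (adjusted p = 0.0140) and Cd22 by -1.03 (adjusted p = 0.0171). Siglecf and Siglecg stayed under the nonspecific level on every array.

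Sorl1 encodes SORLA, a receptor of the VPS10 family that carries cargo such as the amyloid precursor protein between endosomes and the Golgi with the retromer complex. At 0 h its probe set 1426258_PM_at read 84.7, 69.8 and 63.4 in WT and 48.0, 44.8 and 40.4 in KO. After vehicle it read 163, 125 and 109 in WT and 86.2, 77.8 and 55.1 in KO. After LPS it read 127, 191 and 124 in WT and 66.8, 58.1 and 56.4 in KO. Sorl1 is the only 1 of the 5 genes whose genotypes are separate in all 3 conditions, with every KO array under every WT array each time. Of all genes, 7.02% have that order at 0 h, 5.66% after vehicle and 10.1% after LPS. The share with that order in all 3 conditions was not counted. The genes were chosen for a lower KO average, so the order in Sorl1 is a description. The KO minus WT difference was -0.70 at 0 h, then -0.87 with vehicle and -1.26 with LPS (SE 0.20 each), the last a 2.40-fold lower signal.

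The genotype difference in Sorl1 was not shown to change with condition (F = 2.07, adjusted p = 0.614). The difference after LPS was -0.40 from that after vehicle (95% interval -0.997 to 0.203) and -0.56 from that at 0 h (-1.16 to 0.04). These intervals leave room for a change of up to 1.16 towards a larger difference after LPS, so they do not show that the conditions are alike. Sorl1 rose over 8 h in vehicle, by 0.86 ± 0.20 in WT (adjusted p = 0.00790) and 0.70 ± 0.20 in KO (adjusted p = 0.0308), in comparisons that called 14.2% and 12.5% of all genes. It was the only 1 of the 5 genes called there. The rise in KO ended with arrays shifted to the same median (adjusted p = 0.0817), without normalization (0.156), and without KO replicate 1 (0.212) or KO replicate 2 (0.203). The rise in WT ended without normalization (0.115). LPS over vehicle gave 0.15 in WT (adjusted p = 0.654) and -0.25 in KO (adjusted p = 0.383), neither called. Without normalization the value in WT turned to -0.60 (adjusted p = 0.0457), and with the mean of the probe sets that in KO was called (-0.65, adjusted p = 0.00461).

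Of the other Sorl1 probe sets, 1453003_PM_at also had every KO array under every WT array in each condition. It read 35.6, 68.8 and 52.0 in WT after LPS and 15.8, 9.01 and 11.7 in KO, where all 3 arrays were under the nonspecific level, an at least 2.99-fold lower signal (the WT mean over the mean of each KO array's higher value of its own reading and its nonspecific level). In KO this probe set fell from vehicle to LPS (adjusted p = 0.000737), by at least 1.996-fold counted the same way, and in WT it rose from 0 h to vehicle by 1.48 (adjusted p = 0.00298). Probe set 1460390_PM_at was above the nonspecific level on 2 of 18 arrays, none of them KO, and gives neither a size nor a direction.

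Among 16 other VPS10 receptor, retromer and related sorting genes, none passed in KO minus WT averaged over conditions (1.56% of all genes did) or after LPS. None passed in the test over conditions. Their median KO minus WT after LPS was -0.05, against -0.02 over all genes. Sort1, which encodes the related receptor sortilin, had a KO minus WT difference of -0.18 after LPS (adjusted p = 0.712). It fell with LPS in KO (-0.89, adjusted p = 0.00262) and in WT (-0.79), where the call ended without WT replicate 1 (adjusted p = 0.0841). Sorcs1, Sorcs2 and Sorcs3 were above the nonspecific level on at most 1 array.

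Gab3 encodes a scaffolding adaptor of the GAB family, which is phosphorylated after growth factor receptors such as the M-CSF receptor are engaged and which recruits the phosphatase SHP2 and PI3-kinase. At 0 h its only probe set, 1426589_PM_at, read 140.1, 153 and 139 in WT and 131, 119 and 152 in KO. After vehicle it read 175, 152 and 180.2 in WT and 142, 153 and 91.8 in KO. After LPS it read 56.7, 69.5 and 69.0 in WT and 11.3, 8.75 and 19.0 in KO. The genotypes overlap at 0 h and after vehicle, and after LPS every KO array is well under every WT array. Only 1 of the 3 KO arrays was above its nonspecific level after LPS. The KO minus WT difference was -0.11 at 0 h, then -0.42 with vehicle and -2.39 with LPS (SE 0.23 each). The last is a 5.25-fold lower signal, or -1.88 with low readings raised to the nonspecific level.

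LPS lowered Gab3 in both genotypes. It fell by 1.38 ± 0.23 in WT (adjusted p = 0.000183) and by 3.35 ± 0.23 in KO (adjusted p = 1.0e-08), the latter against a group with 1 of 3 arrays above the nonspecific level. With readings raised to that level the fall in KO was 2.84, or 7.14-fold, against 2.60-fold in WT. Such comparisons called 32.3% of genes in WT and 34.5% in KO, so a response to LPS as such is common. The difference between the responses was -1.97 ± 0.33 (adjusted p = 0.00573), or -1.45 with readings raised (adjusted p = 0.00206), in a comparison that called 1.11% of genes in either direction and 0.591% as lower. The genotype difference after LPS was also more negative than at 0 h, by -2.28 ± 0.33 (adjusted p = 0.00163; 1.92% of genes in either direction and 0.953% as lower). The test over conditions gave F = 28.5 (adjusted p = 0.0025). Without normalization the LPS to vehicle difference was -1.34 (adjusted p = 0.0797) and the test over conditions was just short (0.0508). The LPS to vehicle call also ended without WT replicate 2 (adjusted p = 0.0794), KO replicate 1 (0.0617) or KO replicate 2 (0.0531). No change from 0 h to vehicle was called, in WT (0.23) or in KO (-0.09).

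The 19 other genes listed for M-CSF receptor signalling held 5 that passed in KO minus WT after LPS, 2 higher and 3 lower, against 5.97% of all genes. The ligand gene Csf1 was higher in KO by 2.15 ± 0.24 (adjusted p = 6.19e-05) and was the only 1 of the 19 to pass the test over conditions (adjusted p = 0.00106). The test over conditions ended with the mean of its probe sets (adjusted p = 0.0659). Csf1 rose with LPS in KO by 3.52 and in WT by 1.14, the latter not called without normalization (0.40). The receptor gene Csf1r was -0.32 in KO after LPS (adjusted p = 0.147) and fell with LPS (-0.61 in WT and -0.95 in KO). Of the paralogs, Gab1 was lower in KO after LPS by -0.75 ± 0.18 (adjusted p = 0.0198), with a test over conditions that did not pass (adjusted p = 0.0675). The call for Gab1 ended without WT replicate 2 (adjusted p = 0.117), WT replicate 3 (0.0820), KO replicate 2 (0.134) or KO replicate 3 (0.0783), and without normalization (0.203). Gab2 was -0.09 there (adjusted p = 0.839) and fell with LPS (-0.96 in WT and -1.05 in KO); the call in WT ended with the mean of its probe sets (adjusted p = 0.137). The phosphatase gene Inpp5d (-0.88, adjusted p = 0.0365) and the PI3-kinase genes Pik3cd (-0.80, adjusted p = 0.00447) and Pik3r1 (0.58, adjusted p = 0.0141) also passed and are named after their values were seen. Inpp5d ended without WT replicate 1 (adjusted p = 0.1004), WT replicate 2 (0.165), KO replicate 1 (0.137), KO replicate 2 (0.122) or KO replicate 3 (0.142), with arrays shifted to the same median (0.128) and without normalization (0.164). Pik3r1 ended without WT replicate 2 (adjusted p = 0.103), KO replicate 2 (0.130) or KO replicate 3 (0.0561), and Pik3cd ended with arrays shifted to the same median (0.0659) and without normalization (0.192).

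Sfxn5 encodes a sideroflexin, a protein family of the inner mitochondrial membrane that includes a serine transporter feeding one-carbon metabolism. At 0 h its only probe set, 1436618_PM_at, read 41.3, 38.4 and 47.5 in WT and 41.8, 38.6 and 48.5 in KO. After vehicle it read 46.2, 62.4 and 51.5 in WT and 29.6, 28.9 and 35.8 in KO. After LPS it read 84.3, 111 and 51.0 in WT and 16.8, 21.9 and 16.7 in KO. At 0 h the genotypes lie on top of each other, and after vehicle and after LPS they are separate. After LPS 2 of the 3 KO arrays were above their nonspecific level, so the KO signal is near the limit of the array. The KO minus WT difference was 0.02 at 0 h, then -0.76 with vehicle and -2.09 with LPS (SE 0.22 each), the last a 4.27-fold lower signal.

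In KO, Sfxn5 fell from vehicle to LPS by 0.77 ± 0.22 (adjusted p = 0.0112), and in WT it was 0.56 ± 0.22 higher, not called (adjusted p = 0.0635). The value in WT turned to -0.17 without normalization (adjusted p = 0.555) and was called as higher in 4 of 18 alternative settings, those with the offset of 16, with dim genes left out, with values raised to the nonspecific level and without WT replicate 3 (0.85, adjusted p = 0.00791). The genotype difference after LPS was more negative than at 0 h, by -2.11 ± 0.31 (adjusted p = 0.00195). Against vehicle it differed by -1.34 ± 0.31, just short of the threshold (adjusted p = 0.0509). It passed in 6 of 18 alternative settings and ranged from -1.62, without WT replicate 3 (adjusted p = 0.00923), to -0.79, with adjusted p up to 0.215. The test over conditions gave F = 23.4 (adjusted p = 0.00482). The change of the difference from 0 h to vehicle was -0.78 ± 0.31 (unadjusted p = 0.0243, adjusted p = 0.999). In that comparison limma called 0 of 17097 genes, while 628 had an unadjusted p under 0.05 (3.67%). The fall in KO ended without KO replicate 1 (adjusted p = 0.0830) or KO replicate 3 (0.134), and the test over conditions ended without KO replicate 3 (0.0661).

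Of 10 other sideroflexin and one-carbon genes, only Mthfd2l, which encodes a mitochondrial folate enzyme, passed in any KO minus WT comparison. It was higher in KO after LPS by 1.30 ± 0.20 (adjusted p = 0.000759), opposite in sign to Sfxn5, and passed the test over conditions (adjusted p = 0.0449). That test ended without WT replicate 1 (adjusted p = 0.0998), WT replicate 2 (0.253), KO replicate 1 (0.115), KO replicate 2 (0.288) or KO replicate 3 (0.197). The paralogs Sfxn2, Sfxn3 and Sfxn4 were -0.37, 0.65 and -0.25 in KO after LPS, none called (adjusted p 0.276, 0.567 and 0.586). Sfxn3 fell with LPS in WT (-1.86, adjusted p = 0.012). In KO it read -1.30 and was not called (adjusted p = 0.0728), but was with arrays shifted to the same median (0.0257). Sfxn4, above the nonspecific level on 14 of 18 arrays, fell in WT (-0.78, adjusted p = 0.00892) and in KO (-0.65, adjusted p = 0.0249). Sfxn2 rose in WT (0.62, adjusted p = 0.0121), a call that ended with arrays shifted to the same median (0.383). In KO it was not called (0.25, adjusted p = 0.320).

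Cacna1d encodes the pore-forming alpha subunit of an L-type voltage-gated calcium channel, best known from neurons, the inner ear, the sinoatrial node and endocrine cells. At 0 h its probe set 1427974_PM_s_at read 27.0, 31.7 and 37.1 in WT and 28.4, 16.1 and 26.9 in KO. After vehicle it read 56.3, 52.3 and 61.4 in WT and 47.2, 50.4 and 35.2 in KO. After LPS it read 147, 403 and 184 in WT and 28.7, 17.6 and 34.1 in KO. The genotypes overlap at 0 h, are separate by a small gap after vehicle and lie far apart after LPS. The WT arrays spread widely after LPS, with replicate 2 the highest. The KO minus WT difference was -0.46 at 0 h, then -0.37 with vehicle and -3.10 with LPS (SE 0.32 each), the last an 8.58-fold lower signal and the largest of the 5 genes.

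In WT, Cacna1d rose from vehicle to LPS by 1.97 ± 0.32, or 3.92-fold (adjusted p = 0.000149). In KO the same comparison gave -0.76 ± 0.32 and was not called (adjusted p = 0.0836), but was with arrays shifted to the same median (-0.86, adjusted p = 0.0412), without normalization (-0.98, adjusted p = 0.0332) and without WT replicate 2 (adjusted p = 0.0419). The difference between the responses was -2.73 ± 0.46 (adjusted p = 0.00591). Against 0 h the genotype difference after LPS was more negative, by -2.64 ± 0.46 (adjusted p = 0.00684), and the test over conditions gave F = 23.0 (adjusted p = 0.00519). All 3 calls held in 18 of 18 alternative settings. From 0 h to vehicle it was 0.84 ± 0.32 higher in WT (adjusted p = 0.104) and 0.92 ± 0.32 higher in KO (adjusted p = 0.0749), neither called; the value in KO was called in 4 of 18 alternative settings, without WT replicate 2 among them (adjusted p = 0.0401).

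Probe set 1428051_PM_a_at read 101, 151 and 67.4 in WT after LPS and 13.7, 6.69 and 11.01 in KO, where no array was above its nonspecific level. The signal was at least 5.996-fold lower in KO. Outside WT with LPS, this probe set was above the nonspecific level on 4 of 15 arrays. In WT, where 2 of 3 vehicle arrays were above that level, it rose with LPS (adjusted p = 1.24e-05) by 2.60 as read and 2.51 with readings raised, and the test over conditions passed (adjusted p = 0.00308).

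Of 21 other voltage-gated calcium channel subunit genes, 3 were above the nonspecific level on at least 3 arrays: Cacna1a and Cacna1f on all 18 and Cacna1b on 6. None of the 21 passed in any KO minus WT comparison or in the test over conditions, and none was called for LPS against vehicle in either genotype (limma). After LPS, KO minus WT was 0.12 for Cacna1a, 0.23 for Cacna1f and -0.30 for Cacna1b. The pore-forming genes Cacna1c, Cacna1e, Cacna1g, Cacna1h and Cacna1s were never above the nonspecific level.

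**Figure D2:**
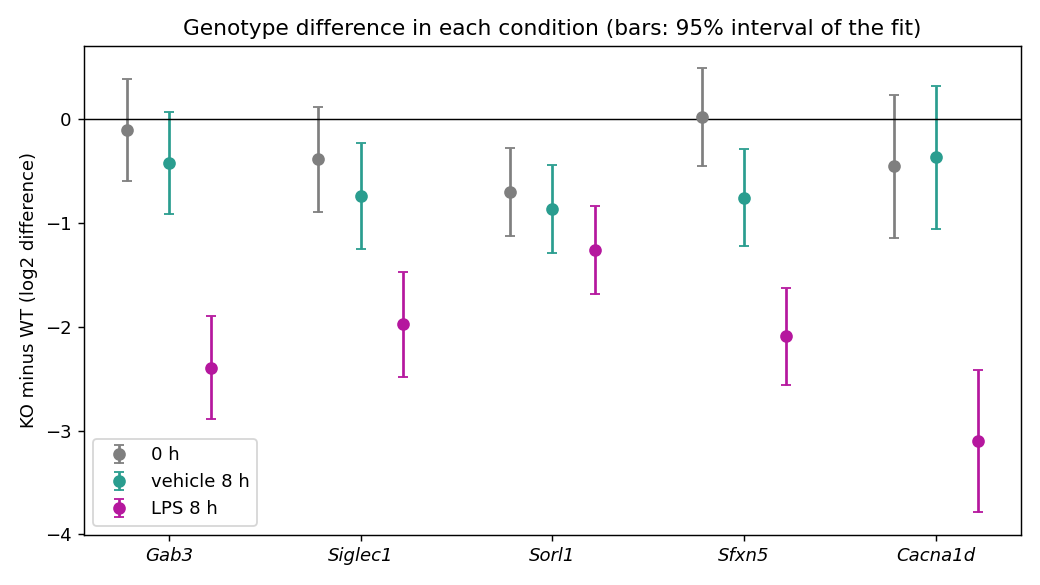
KO minus WT (log2 difference, vertical axis) for each gene at 0 h (grey), after vehicle (green) and after LPS (magenta), with the 95% interval of the fit over 18 arrays. The LPS point is the lowest for every gene, from -1.26 in Sorl1 to -3.10 in Cacna1d, and for Sorl1 its interval overlaps those of the other conditions. The average of these differences chose the genes, so the intervals describe precision and test nothing. Overlap between intervals makes no call either, and the LPS to vehicle term did not pass in Siglec1, Sfxn5 or Sorl1.

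**Figure D3:**
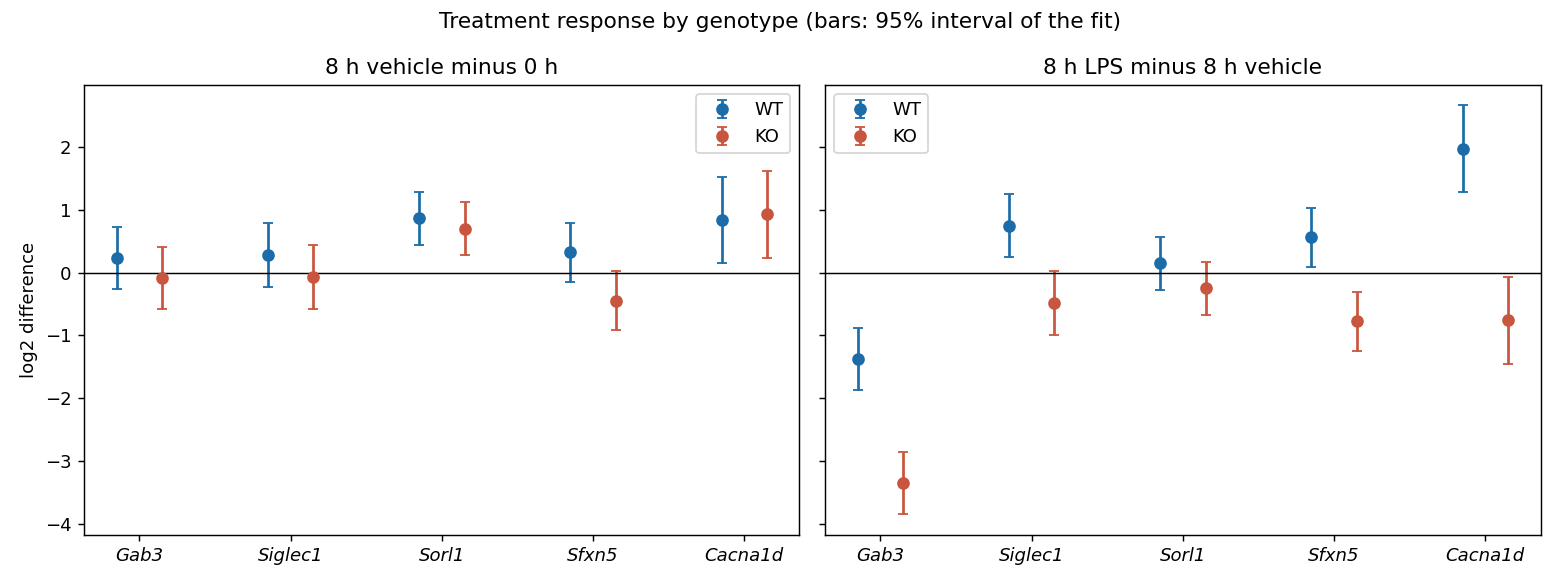
Response of each gene to 8 h of vehicle against 0 h (left) and to LPS against vehicle (right), as log2 differences with 95% intervals, WT in blue and KO in red. On the right, Cacna1d rises by 1.97 in WT and reads -0.76 in KO, and Gab3 falls in both, by 1.38 in WT and 3.35 in KO.

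**Figure D4:**
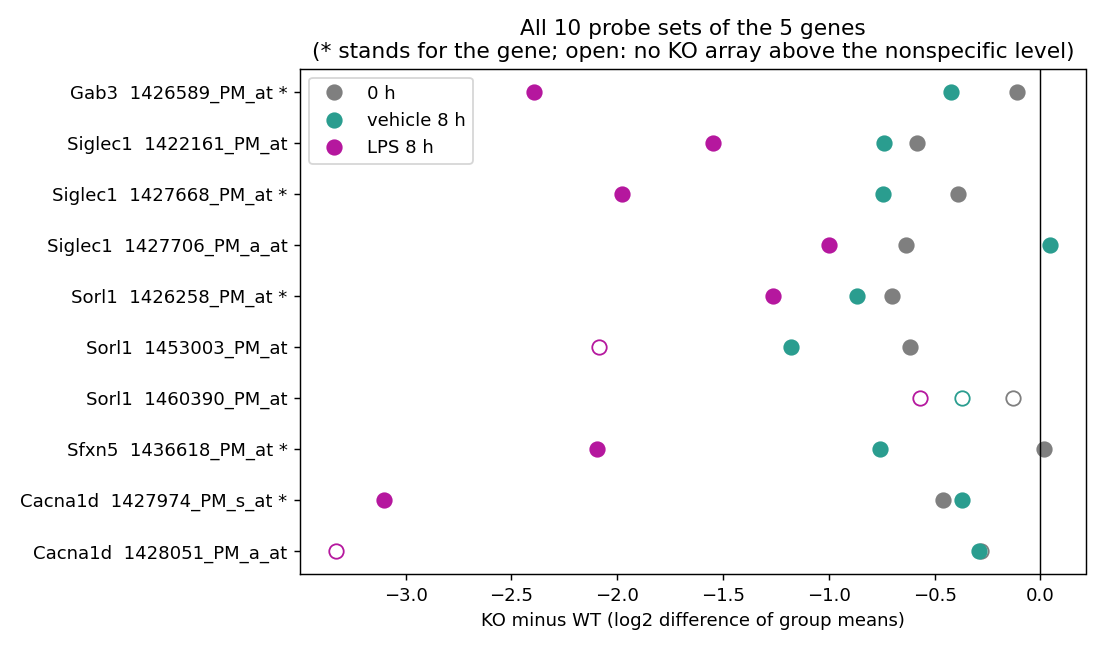
KO minus WT (log2 difference of group means, horizontal axis) at 0 h, after vehicle and after LPS for all 10 probe sets; an asterisk marks the probe set that stands for its gene. Open points mark differences where no KO array was above the nonspecific level, so their place shows no measured size. In the 7 probe sets with a filled LPS point that point is furthest to the left, from -0.998 in a Siglec1 probe set to -3.10 in Cacna1d.

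**Figure D5:**
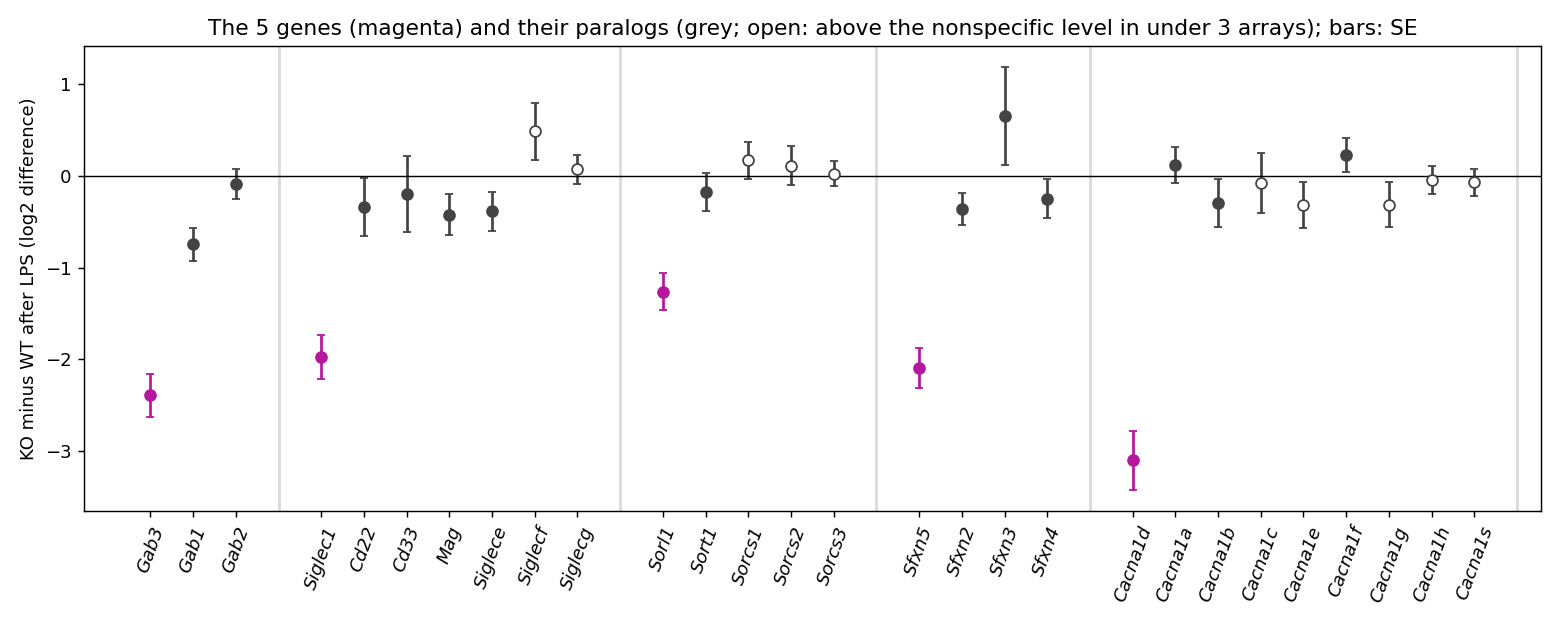
KO minus WT after LPS (log2 difference, vertical axis) with its SE for the 5 genes in magenta and their paralogs in grey; open symbols mark genes above the nonspecific level on fewer than 3 arrays. The paralogs lie between -0.75 (Gab1) and 0.65 (Sfxn3), and the 5 genes, which were chosen for a low average, lie at -1.26 or below.

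The order of the 6 groups differs between the genes. Siglec1, Sorl1, Sfxn5 and Cacna1d were highest in WT after LPS, and Gab3 in WT after vehicle. For Gab3 the order was WT vehicle, WT 0 h, KO 0 h, KO vehicle, WT LPS and KO LPS, with overlap between neighbours among the first 4 and none after them. For Siglec1 WT LPS stands alone at the top, and all later neighbours overlap. For Sorl1 the order was WT LPS, WT vehicle, WT 0 h, KO vehicle, KO LPS and KO 0 h, with gaps only after WT vehicle and before KO 0 h. For Sfxn5 the KO vehicle and KO LPS groups stand apart at the bottom, and for Cacna1d WT LPS and WT vehicle at the top.

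Over the 18 arrays, Pearson's r between pairs of the 5 genes ran from 0.11 (Gab3 and Cacna1d) to 0.82 (Sorl1 and Cacna1d). With each group's mean taken out it ran from -0.34 to 0.64, and Gab3 and Cacna1d, the least alike over all arrays, were the most alike within groups (0.64). The arrays share 6 groups and the genes were chosen together, so these values describe and have no p. Among 10333 other genes above the nonspecific level on at least 3 arrays, those most like Gab3 were Selenop (r = 0.98), Tyrobp (0.96) and Fli1 (0.95). Those most like Siglec1 were the complement protease genes C1ra (0.88) and C1rb (0.88) and the interferon receptor gene Ifnar2 (0.87). For Sorl1 they were Csf3r, the G-CSF receptor gene (0.90), Hexim1 (0.86) and Tmem38b (0.84). For Sfxn5 they were C1rb, Phyh and Nek6 (0.87, 0.87 and 0.85), and for Cacna1d Arhgef2, Bicra and Rab43 (0.94, 0.93 and 0.90).

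The 5 genes were named rather than cut at a value. In a fit with 1 average over conditions for each genotype and replicate number, 21 genes were lower in KO (0.123% of all) and 42 higher (0.246%). By size, Cacna1d, Siglec1, Gab3, Sfxn5 and Sorl1 are ranks 3, 5, 7, 9 and 10 of the 21, with averages of -1.31, -1.04, -0.98, -0.94 and -0.94. The same average chose the 5 genes, so their places in this list describe and test nothing. Klf3 is first at -1.79, and the next gene after Sorl1 is Bcl6 at -0.92.

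The genotype itself was checked on Klf3. Its probe set 1421604_PM_a_at was 16.9-fold lower in KO at 0 h, at least 13.2-fold after vehicle and at least 10.5-fold after LPS. The probe set that stands for the gene, 1454666_PM_at, was 2.27-, 3.78- and 4.86-fold lower, and 1429360_PM_at 3.63-, 4.64- and 7.32-fold, both still above the nonspecific level in KO. The labels do not say which part of the gene is missing, and probe sets 1431630_PM_a_at, 1441200_PM_at and 1442920_PM_at read higher in KO at 0 h (1.51, 0.69 and 0.67). Their KO minus WT differences were 1.31, 0.05 and 0.24 after vehicle and 0.24, -0.58 and -0.05 after LPS. For 1442920_PM_at no WT array at 0 h was above its nonspecific level, so its 0.67 shows no measured size. After vehicle every KO array of 1431630_PM_a_at (294 to 419) was above every WT array (116 to 226). All 9 measured macrophage markers were above the nonspecific level on every array, and none of the 4 dendritic cell and 5 mast cell markers was on any. After LPS the summed macrophage markers read 30678 to 32475 in WT and 26086 to 27819 in KO, and Fcgr1 (-1.29, adjusted p = 0.0118) and Itgam (-0.82, adjusted p = 0.0436) passed as lower. The summed osteoclast markers read 861 to 1473 in WT and 1375 to 1662 in KO, and the neutrophil markers 569 to 905 and 543 to 713, with Elane, Mpo, Ltf, S100a9 and Cxcr2 never above the level. Of these lists, the osteoclast markers Calcr (-0.97) and Mmp9 (-2.17) and the neutrophil marker S100a8 (-1.28) passed as lower in KO after LPS, Mmp8 (0.69) as higher, and Acp5 as higher on average (0.64). For T and NK cells 7 markers were measured, for B cells 5, for erythroid cells and megakaryocytes 6 and for stromal cells 8. None of those 4 lists had a gene called between genotypes. The 5′ minus 3′ log2 signal of Gapdh, a sign of RNA integrity, was -0.36 ± 0.28 (SD, n = 3) in WT and -0.43 ± 0.05 in KO after LPS, and 0.14 and 0.09 at 0 h. WT arrays after LPS also differed most among themselves, with an SD around the group mean of 0.277 to 0.336 over all genes, against 0.165 to 0.266 elsewhere. The part that these markers and array features have in the differences after LPS was not tested.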

How the data were processed

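RNA of 18 samples was hybridised to Affymetrix HT MG-430PM arrays. The deposited values are linear intensity for each probe set. Per the submitters' processing notes Partek was used; of its version and settings nothing is given in the sources read. The arrays' medians differed, so log2 was taken and all 45141 probe sets were quantile-normalized, which departs from the deposited values. Leaving out 104 control probe sets, 28898 carried 1 symbol, 551 several and 15588 none in the platform annotation; the brightest probe set stood for each of 17097 genes, 7180 of which had more than 1. limma 3.58.1 in R 4.3.3 fitted 6 group means to all arrays, with empirical Bayes and Benjamini-Hochberg adjustment at 0.05, after a test on simulated data. The number of arrays limits precision. The 5 genes and the lists were chosen with earlier results of these data known. Named genes are the 5, their paralogs, list genes passing in the average or over conditions, the 3 most correlated genes for each, and Klf3; others, such as Inpp5d, Pik3cd, Pik3r1, Csf1r and cell type markers, were named after their values were seen. Replicate numbers were not treated as pairs in the main fit. Alternatives covered normalization, an offset of 16, dim signal, probe set choice, moderation, blocks and left-out replicates. Promoter windows for Gab3 and Siglec1 were not used here.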

Additional observations from a re-analysis of the deposited data

Results flagged for a closer look

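The genotype difference passed as changing between conditions in 4 of the 5 genes. For Siglec1 this call is near the threshold. It held in 9 of 18 alternative settings, and the LPS to 0 h term of Siglec1 held in 11 of 18. Against vehicle, the KO minus WT difference after LPS was more negative by -1.97 in Gab3 (adjusted p = 0.00573) and by -2.73 in Cacna1d (adjusted p = 0.00591). Against 0 h it was more negative by -2.28 in Gab3 (adjusted p = 0.00163), -2.64 in Cacna1d (adjusted p = 0.00684), -2.11 in Sfxn5 (adjusted p = 0.00195) and -1.59 in Siglec1 (adjusted p = 0.0227). Each is an interaction term of the limma fit, with 3 arrays in each group.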

How the results depend on the processing

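Over 18 alternative settings, KO stayed under WT after vehicle, after LPS and on average in all 5 genes, and at 0 h in all but Sfxn5, which was negative in 4 of the 18. The genes were chosen by that average in these same arrays, so this direction was largely fixed and adds no support. Cacna1d passed the test over conditions and both LPS interactions in 18 of 18, and Gab3 and Sfxn5 passed the LPS to 0 h interaction in 18 of 18. Siglec1 passed the test over conditions in 9 of 18. In deposited values without normalization, the median over all genes moved by -0.44 with LPS in WT and by -0.03 in KO. The all-gene median of the LPS to vehicle interaction was then 0.44, and of KO minus WT after LPS 0.29, against -0.02 for each with normalization. Normalization thus moved both contrasts down for a typical gene, the direction reported for the 5 genes. Deposited values turned the LPS response in WT of Sorl1 to -0.60 (adjusted p = 0.0457, from 0.15) and of Sfxn5 to -0.17 (from 0.56). They also turned that of Gab1 to -0.55 (from 0.17) and of Sfxn2 to -0.14 (from 0.62). They left 2 of 4 genes past the test over conditions (Gab3 at adjusted p = 0.0508), 1 of 2 past the LPS to vehicle interaction, and 0 of 1 past vehicle against 0 h in WT and in KO. Vehicle against 0 h in KO also called 0 with arrays shifted to the same median, and 2 with dim genes left out or with values raised to the nonspecific level. Leaving out replicates gave 2 to 4 genes past the test over conditions, 1 to 3 past the LPS to vehicle interaction, 1 to 3 past LPS in KO and 0 to 2 past vehicle against 0 h in KO. Among the genes of the 5 lists, the count past the average (1) became 0 with deposited values and 2 with the offset of 16 or dim genes left out, and 0 to 2 without a replicate. The count after LPS (6) ran from 3 to 8 without a replicate, with 3 without WT replicate 2, KO replicate 2 or KO replicate 3. The count past the test over conditions (2) became 5 with deposited values, 4 with the offset, dim genes left out, values raised or trended robust moderation, 1 with the plate column as a block, and 1 to 3 without a replicate. The count of promoter windows with a match fell from 2 to 0 with the longer motif. Over all genes, the count past the test over conditions (257) ran from 57 to 510. The cause of these changes was not tested. Same-numbered arrays of the other genotype had a median correlation of 0.002 around their group means, with 2 of 27 pairs over 0.1. For the same number within a genotype it was 0.041 (2 of 18 pairs over 0.1), against -0.018 for other numbers (4 of 90). Each number kept its plate column over the conditions within a genotype. These small correlations cannot settle whether a number links samples within a genotype, and the labels do not say. With the replicate number as a block, 4 of the 5 genes (229 of all genes) still passed the test over conditions and 1 of the list genes did; with the block within genotype 268 of all genes did, and the block with the number ended the call over conditions of Mthfd2l (adjusted p = 0.0720) and no call of the 5 genes. Leaving out the vehicle-treated KO replicate 3 or the LPS-treated WT replicate 1 was chosen after seeing the data. Signal near the nonspecific level limits the size of the difference after LPS in Gab3 (-1.88 to -1.50 with low values raised or offset) and Sfxn5.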
